A study of Homo sapiens with 16 samples.

Results

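The mRNAs that were recovered with hsa-miR-1301-3p by RISC-trap, an immunoprecipitation of the RNA-induced silencing complex (RISC), are described here, from 2 of the 16 libraries of the series. The members are every library titled with mir1301-3p, called replicate 1 and replicate 2 in the text. They were set against the 10 libraries of mir1180-3p, mir1260a-5p, mir1271-5p, mir3613-5p and mir550-3p, with 2 libraries each, and the reference was the mean of the 5 group means. The 4 libraries of mir124 were left out. The source of all 12 libraries was the HEK 293 line, immortal cells grown from human embryonic kidney. The labels name the RISC-trap procedure, extraction with Trizol, polyadenylated RNA and a SOLiD kit for total RNA in each group and give no other difference between the groups. The count columns of mir1301-3p and mir550-3p are named by the miRNA and those of the other 8 libraries by a sample number, and the labels do not say what this naming stands for. Values against mir550-3p alone, the reference named in the same way, are therefore given where they change a call. No pulldown without a miRNA is named, so every difference is relative to other pulldowns and not to the cells' own mRNA. Whether the 2 libraries of a miRNA came from separate cultures is not stated in the titles; p-values therefore measure the spread between these libraries, which may be technical.

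A miRNA guides an Argonaute protein to mRNAs, mostly through pairing of its seed, the bases near its 5′ end, with the mRNA. Argonaute then recruits GW182 proteins, of which TNRC6A is a member, and these bring in the enzymes that shorten the poly(A) tail and lower translation. In RISC-trap a dominant-negative GW182 holds the target mRNA on the complex, so a target of the miRNA under study is recovered more than in a pulldown with another miRNA.

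The mature sequences of the 6 miRNAs are shown because the comparison rests on their having different seeds. They are RefSeq sequences of the build GRCh38.p14, written 5′ to 3′ with the seed, bases 2 to 8, in capitals. The names mir1260a-5p and mir550-3p were read as hsa-miR-1260a and hsa-miR-550a-3p, and the molecules used in the experiment may differ from these entries.
hsa-miR-1301-3p: uUGCAGCUgccugggagugacuuc
hsa-miR-1180-3p: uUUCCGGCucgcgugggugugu
hsa-miR-1260a: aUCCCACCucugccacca
hsa-miR-1271-5p: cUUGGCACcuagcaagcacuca
hsa-miR-3613-5p: uGUUGUACuuuuuuuuuuguuc
hsa-miR-550a-3p: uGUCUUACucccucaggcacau
The 6 seeds are 6 different sequences. An mRNA pairs with the whole seed of hsa-miR-1301-3p where it reads AGCUGCA. Of the 2545 mature miRNAs in the table, hsa-miR-5047 is the other that carries the seed, and the pair differ after it.
hsa-miR-5047: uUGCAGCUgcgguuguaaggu
The mature hsa-miR-1301-3p has 24 bases and lies at chr2:25328651-25328674 on the minus strand, within the span of DNMT3A, the gene of a DNA methyltransferase. DNMT3A mRNA was recovered at 16.0 and 19.2 normalised CPM with mir1301-3p and at 10.4 to 19.9 in the other libraries. This difference did not pass the test (log2 fold change 0.27 with an SE of 0.32, edgeR adjusted p = 0.55). Values after ± are SEs from here on. Normalised CPM are counts scaled by the library total multiplied by a factor from the trimmed mean of M values, given below. Matches to the seed in the recovered mRNAs were not analysed here.

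Total counts were 7612758 and 8533543 in the mir1301-3p libraries and 8004955 to 17972321 in the other 10. A count of 0 allows up to 0.394 and 0.352 CPM in the mir1301-3p libraries, taken as 3 counts of the total and covering counting error only. The mir1301-3p libraries stood apart in their weakly recovered genes: the first quartile over all genes, in CPM by total counts, was 3.02 and 3.40, against 0.779 to 1.80. Their factors from the trimmed mean of M values (TMM), 1.26 and 1.18, were above those of the other libraries, 0.823 to 1.11. Deviations from the mean of the 6 miRNAs correlated between the mir1301-3p libraries with a Pearson r of 0.34 over abundant genes and 0.51 over genes near the background, across genes, which are not independent replicates. Over all genes tested the r between the 2 libraries of a miRNA ran from -0.13 to 0.60, highest for mir1301-3p, and 7 of the 12 libraries correlated best with a library of another miRNA.

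The table held 19077 genes, of which 17658 were tested, with edgeR's quasi-likelihood test and a threshold of 0.05 on the Benjamini-Hochberg adjusted p. With mir1301-3p 2039 genes were higher (11.5%) and 776 were lower (4.39%) than the reference. The direction followed the level of recovery, so the genes were parted by the mean of the 6 group means. Abundant genes were those at 50 CPM or more, genes near the background those under 10 CPM, and intermediate genes lay between these limits. That mean includes mir1301-3p, so a gene that is high there can reach a higher class through it. Among the 4640 abundant genes 144 were higher (3.1%) and 484 lower (10.4%), with a median log2 fold change of -0.49. Among the 5166 intermediate genes 134 were higher (2.59%) and 273 lower (5.28%), with a median of -0.33. Among the 7852 genes near the background 1761 were higher (22.4%) and 19 lower (0.242%), with a median of 0.91. Over all classes both mir1301-3p libraries lay above the other 10 for 2546 genes (14.4%) and below them for 1199 (6.79%).

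The split of the calls moved with the scaling. With TMM factors computed from abundant genes alone the median of all genes shifted up by 0.44 on the log2 scale, and 4355 genes were higher (24.7%) and 172 lower (0.974%). The share of calls that were higher was then 96.2% in place of 72.4%, and among abundant genes 80.6% in place of 22.9%. In that scaling 404 abundant genes were higher (8.71%) and 97 lower (2.09%), which held all 144 higher genes of the main scaling and 97 of its 484 lower ones. Of the intermediate genes 476 were higher (9.21%) and 69 lower (1.34%), and near the background 3475 were higher (44.3%) and 6 lower (0.0764%). Values in the text are in the main scaling unless another is named.

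**Figure D1:**
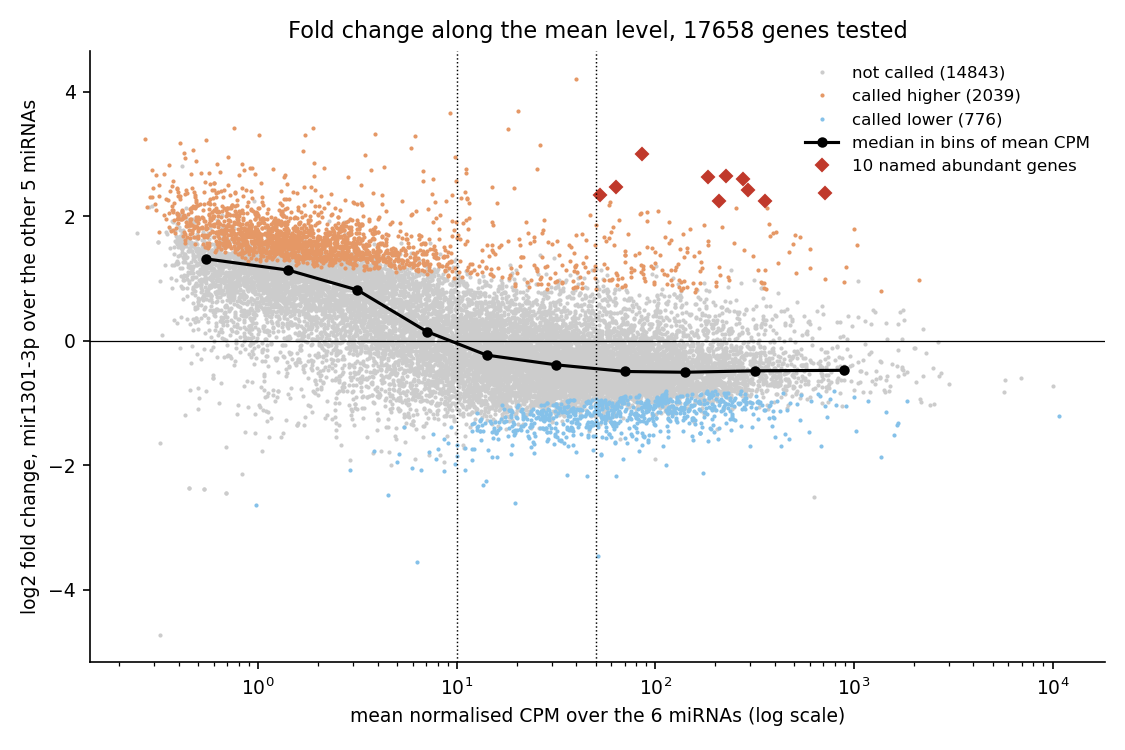
Log2 fold change of mir1301-3p against the mean of the 5 other miRNAs (vertical axis) by mean normalised CPM on a log scale (horizontal axis), 1 point per gene of the 17658 tested, with called genes in colour and the class limits at 10 and 50 CPM. Genes near the background sit mostly above 0, with a median of 0.91, and abundant genes mostly below it, with a median of -0.49.

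The abundant mRNAs recovered most strongly with mir1301-3p came from genes of several unrelated roles, and 20 of them were called in each of the 25 alternatives run, among them each reduction to 1 mir1301-3p library. The 20 genes were set apart by that condition, so their stability is not a separate result. The 10 with the largest increase were named by a rule that required both mir1301-3p libraries above the other 10. Their log2 fold changes lay between 1.58 for TMEM11 and 3.00 for QPRT. Both mir1301-3p libraries lay above the other 10 for 113 of the 144 higher genes, and 144 abundant genes in all, called or not, had this order (3.1%).

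Signalling and small GTPases formed the first group of these. RHEB, the small GTPase that activates the kinase complex mTORC1, had 939 and 539 CPM with mir1301-3p and a lowest, median and highest value of 72.1, 126 and 179 CPM in the other 10 libraries. Both values were above every other library, a log2 fold change of 2.64 with an SE of 0.23 (adjusted p = 7.4e-06). RAB40B, a Rab-family GTPase that acts with a ubiquitin ligase, had 977 and 846 CPM against 125, 176 and 201 CPM. The mir1301-3p libraries were close to each other and well clear of the rest, with 2.42 ± 0.21 (adjusted p = 7.4e-06). UHMK1, a serine/threonine kinase that binds splicing factors, had 834 and 996 CPM against 128, 283 and 399.9 CPM, without overlap (1.73 ± 0.25, adjusted p = 0.00085).

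Genes of the cytoskeleton and of cell shape made up another group. PLS3, the actin-bundling protein plastin 3, had 2379 and 1941 CPM against a lowest, median and highest value of 230.2, 400.5 and 756 CPM. Its lower mir1301-3p library was still above the highest of the others (2.38 ± 0.29, adjusted p = 0.00017). NDEL1, a regulator of the motor dynein that is needed for neuronal migration, had 209 and 185 CPM against 16.3, 35.9 and 51.0 CPM. No library of another miRNA came near these values (2.47 ± 0.25, adjusted p = 3.9e-05). CTTNBP2NL, a relative of a cortactin-binding protein, had 210.1 and 239.9 CPM against 26.7, 50.1 and 92.2 CPM (2.05 ± 0.31, adjusted p = 0.0013). C6orf115, now named ABRACL and linked to actin dynamics, had 1075 and 725 CPM against 113, 146 and 214 CPM (2.60 ± 0.23, adjusted p = 7.4e-06). Replicate 1 was the higher library for C6orf115 and PLS3 and replicate 2 for CTTNBP2NL, so the order of the libraries was not shared.

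Metabolism and mitochondria gave the largest fold change of the abundant genes called higher. QPRT, the enzyme that turns quinolinate into a precursor of NAD, had 209 and 419.9 CPM against a lowest, median and highest value of 21.3, 39.8 and 61.5 CPM (3.00 ± 0.33, adjusted p = 9.7e-05). Without replicate 2 the value was 2.40 and without replicate 1 it was 3.41. MTX2, metaxin 2, which takes part in import across the outer mitochondrial membrane, had 775 and 419 CPM against 59.0, 84.8 and 200.2 CPM (2.64 ± 0.26, adjusted p = 3.7e-05). NDUFB10, a subunit of respiratory complex I, had 1002 and 1376 CPM against 205, 391 and 449 CPM (1.71 ± 0.25, adjusted p = 0.0010). TMEM11, a protein of the inner mitochondrial membrane that shapes the organelle, had 269 and 248 CPM against 48.9, 95.2 and 133 CPM (1.58 ± 0.23, adjusted p = 0.0011). None of these 4 genes had a library of another miRNA at the mir1301-3p level. HSDL1, a hydroxysteroid dehydrogenase-like protein, had 122 and 129.9 CPM against 25.9, 31.7 and 47.9 CPM (1.87 ± 0.25, adjusted p = 0.00041).

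Further genes of the 20 act on chromatin, transcription and RNA. MLL, now named KMT2A, a histone methyltransferase, had 496 and 712 CPM against a lowest, median and highest value of 59.3, 139 and 157 CPM (2.24 ± 0.24, adjusted p = 6.6e-05). SNAI2, the transcription factor Slug of the epithelial-mesenchymal transition, had 991 and 988 CPM against 98.1, 201 and 492 CPM (2.24 ± 0.24, adjusted p = 7.6e-05). The mir1301-3p libraries were almost equal for SNAI2, and replicate 2 of mir1271-5p was the highest of the others. TCF4, a basic helix-loop-helix factor of neuronal development, had 169.7 and 294 CPM against 41.5, 63.4 and 87.4 CPM (1.93 ± 0.25, adjusted p = 0.00035). PAIP1, which binds the poly(A)-binding protein and promotes translation, had 189.9 and 122 CPM against 14.95, 28.5 and 52.5 CPM (2.35 ± 0.30, adjusted p = 0.00033).

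CNOT4, a ubiquitin ligase tied to the CCR4-NOT deadenylase, had 199 and 132 CPM against 25.8, 32.1 and 54.9 CPM (2.18 ± 0.25, edgeR adjusted p = 0.00015). THOC7, a subunit of the THO complex of mRNA export, had 980.4 and 895 CPM against 179, 247 and 388 CPM (1.87 ± 0.22, adjusted p = 0.00015). The mir1301-3p libraries lay above all others for both genes. CNOT4, TCF4, THOC7, HSDL1, CTTNBP2NL, UHMK1 and TMEM11 were picked for the text after their values were seen, because they were called in every alternative.

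**Figure D2:**
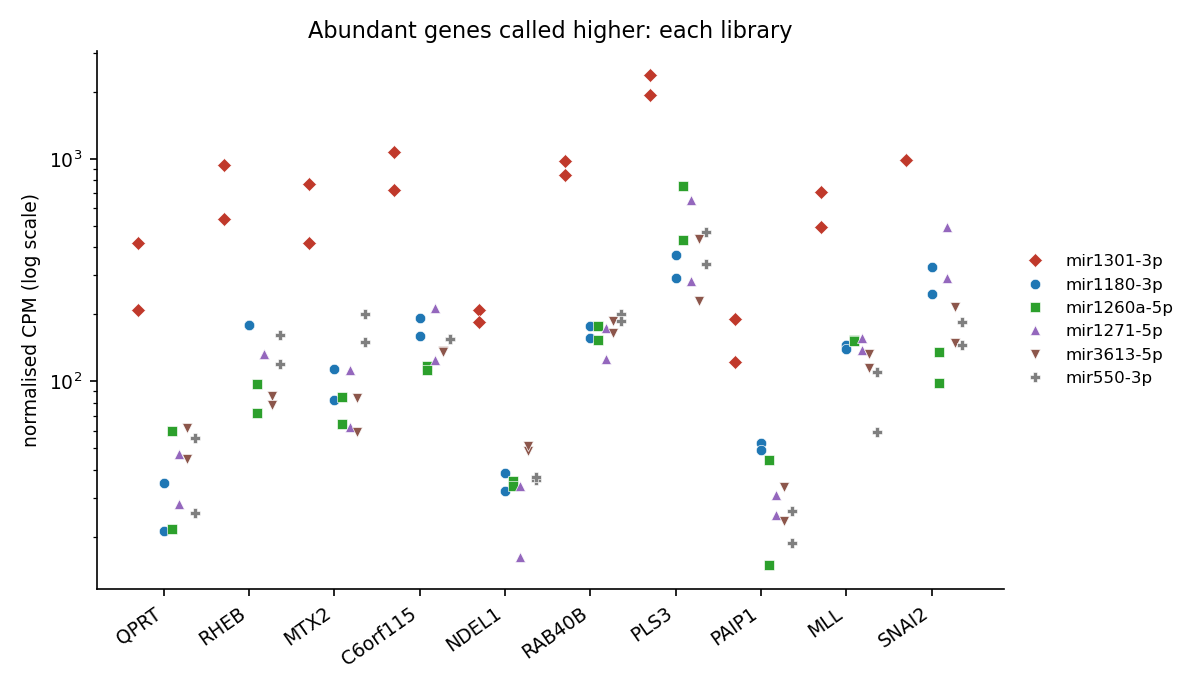
Normalised CPM on a log scale (vertical axis) of the 10 abundant genes with the largest increase, 1 symbol per library and 1 colour per miRNA. The genes were picked so that both mir1301-3p libraries sit above the other 10 for each, and their log2 fold changes run from 2.24 to 3.00.

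The other 124 abundant genes called higher lost the call in at least 1 alternative. Without replicate 1 of mir1301-3p 34 abundant genes were called higher and without replicate 2 45 were, each among the 144; in these fits the library that was kept was taken to vary as the other groups did. DPP9, a dipeptidyl peptidase, had 173 and 141 CPM against 9.94 to 109.7 CPM and a log2 fold change of 2.24, and lost its call without replicate 1 (2.07). Its mean in the other libraries was 39.8 CPM, so DPP9 too reached the abundant class through mir1301-3p. ACAT2, a cytosolic thiolase of sterol synthesis, had 1489.5 and 558 CPM against 152 to 298 CPM (2.14; 1.26 without replicate 1, not called). CDC42EP1, an effector of the GTPase CDC42, had 136 and 329 CPM against 25.4 to 126 CPM (2.07; 1.29 without replicate 2, not called). TSPO, a protein of the outer mitochondrial membrane, had 165 and 272 CPM against 22.1 to 96.6 CPM (2.05; 1.64 without replicate 2, not called). For these 4 genes both libraries lay above the other 10, and the spread between the mir1301-3p libraries was larger for ACAT2 and CDC42EP1 than for most of the 20 above. The 144 genes had a median log2 fold change of 1.23, 106 of them were above 1, and replicate 1 was the higher library in 82.

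Gene lists of cell machinery were read within the abundant class, where 3.1% of genes were higher and 10.4% lower. Of 80 cytosolic ribosomal protein genes 8 were higher and 2 lower, with a median of -0.27. Genes of this family have near-identical copies, so their counts are uncertain. RPL9 had 809 and 452 CPM against 186 to 592 CPM (1.14 ± 0.26, adjusted p = 0.015), and without replicate 1 of mir1301-3p it was not called (0.65). Of 59 mitochondrial ribosomal protein genes 0 were higher and 8 lower, with a median of -0.56, by edgeR. At an unadjusted p under 0.05 the counts were 1 and 24, and by DESeq2 0 and 18; with factors from abundant genes 4 were higher and 0 lower. The median of that list, -0.56, was near that of all abundant genes, -0.49.

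Among 75 abundant genes of oxidative phosphorylation 3 were higher and 6 lower (median -0.50). NDUFB10, described above, stood beside SDHB, a subunit of succinate dehydrogenase, with 177 and 149 CPM against 45.7 to 99.8 CPM (1.21 ± 0.26, adjusted p = 0.013). SDHB was not called without replicate 1 (1.07) or replicate 2 (1.32) of mir1301-3p, nor against mir550-3p alone (0.73). NDUFB9, another complex I subunit, had 32.9 and 53.6 CPM against 61.5 to 142 CPM (-1.28 ± 0.31, adjusted p = 0.019), and lost its call without replicate 1 (-0.98) or replicate 2 (-1.68). Of 27 abundant proteasome subunits 2 were higher and 7 lower (median -0.60). PSMA2, an alpha-ring subunit, had 1298 and 869.9 CPM against 255 to 487 CPM (1.55 ± 0.24, adjusted p = 0.0018) and lost the call without replicate 1 (1.22). PSMB1, a beta-ring subunit, had 157 and 193 CPM against 194 to 595 CPM (-1.11 ± 0.28, adjusted p = 0.022). PSMB1 was not called without replicate 1 (-0.98) or replicate 2 (-1.27), nor with factors from abundant genes (-0.67).

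Chromatin regulators numbered 37 among the abundant genes, 2 higher and 4 lower (median -0.54). MLL was 1 of the higher ones. Its relative MLL2, now named KMT2D, was an intermediate gene with 37.7 and 55.8 CPM against 10.8 to 23.0 CPM (1.63 ± 0.29, adjusted p = 0.0044), and lost its call without replicate 2 (1.32). SMARCB1, a core subunit of the SWI/SNF remodeller and also intermediate, had 13.7 and 18.0 CPM against 29.96 to 77.2 CPM (-1.76 ± 0.34, adjusted p = 0.0086). Both its libraries lay below the other 10, but it was not called without replicate 1 (-1.59) or replicate 2 (-1.97) or against mir550-3p alone (-1.21). H3F3A, a gene of the replacement histone H3.3, had 240.2 and 367 CPM against 62.7 to 216 CPM (1.36 ± 0.25, adjusted p = 0.0066; 1.01 and not called without replicate 2).

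Of 75 abundant ZNF zinc-finger genes 4 were higher and 9 lower (median -0.56). ZNF503, a transcriptional repressor of development, had 1873 and 2587 CPM against 381 to 1235 CPM (1.54 ± 0.26, adjusted p = 0.0034; 1.28 and not called without replicate 2). ZNF238, now named ZBTB18, a repressor needed for cortical neurogenesis, had 688 and 459 CPM against 103 to 419.8 CPM (1.46 ± 0.28, adjusted p = 0.0071; 1.13 and not called without replicate 1). Both genes had mir1301-3p libraries above all others. Of the RISC and miRNA machinery 25 genes were abundant, with 1 higher and 0 lower by edgeR (3 and 5 at an unadjusted p under 0.05, 1 and 4 by DESeq2). That gene was GEMIN5, which binds small nuclear RNAs, with 119 and 95.9 CPM against 37.1 to 146 CPM (0.88 ± 0.27, edgeR adjusted p = 0.037). It overlapped the other libraries and kept its call in 15 of the 25 alternatives. Losses included the fits without replicate 1 (0.71) or replicate 2 (1.03). TNRC6A, a GW182 gene, had 6369.6 and 6309.6 CPM against 6512 to 16603 CPM. The difference did not pass the test (-0.73 ± 0.27, edgeR adjusted p = 0.071), but did against mir550-3p alone (-1.36). Its mean over the 6 miRNAs was 10072 CPM, against 201 CPM for TNRC6B and 93.2 CPM for TNRC6C of the same list. Whether reads of the dominant-negative GW182 are part of the TNRC6A counts was not tested.

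Abundant genes called lower were more numerous, at 484 (10.4%), but less stable. Both mir1301-3p libraries lay below the other 10 for 334 of them, and 715 abundant genes in all had this order (15.4%). Without replicate 1 of mir1301-3p 3 abundant genes were called lower, and without replicate 2 30 were, of which 22 were among the 484. Without a single reference library the count was 210 for mir1180-3p replicate 1, 853 for mir1271-5p replicate 2, 206 for mir550-3p replicate 1 and 292 for mir550-3p replicate 2. Of the 484 genes 207 had their highest group mean with mir550-3p, 93 with mir1271-5p, 92 with mir1180-3p, 77 with mir3613-5p and 15 with mir1260a-5p. FNBP4, a formin-binding protein, was the abundant lower gene called in each of the 25 alternatives.

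FNBP4 had 31.4 and 39.7 CPM with mir1301-3p and a lowest, median and highest value of 75.01, 119 and 590.4 CPM in the other libraries (-2.12 ± 0.30, adjusted p = 0.00085). Its 2 highest libraries were those of mir1180-3p. ITPA, which clears inosine triphosphate from the nucleotide pool, had 10.4 and 19.4 CPM against 33.0, 63.3 and 149.7 CPM (-2.16 ± 0.38, adjusted p = 0.0041). It was not called without replicate 1 (-1.79). TRIB3, a stress-induced pseudokinase, had 18.9 and 38.1 CPM against 55.1, 97.2 and 299 CPM, with the libraries of mir1271-5p highest (-1.99 ± 0.34, adjusted p = 0.0039; -1.58 and not called without replicate 1). RC3H2, roquin-2, which promotes mRNA decay, had 13.7 and 17.2 CPM against 35.8, 46.1 and 126 CPM (-1.82 ± 0.32, adjusted p = 0.0041; -1.67 and not called without replicate 1). The libraries of mir1180-3p were the highest for ITPA and RC3H2 too.

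NUP37, a subunit of the nuclear pore, had 14.7 and 25.3 CPM against 33.7, 70.4 and 156 CPM (-1.90 ± 0.48, edgeR adjusted p = 0.020). It was not called without replicate 1 (-1.57) or replicate 2 (-2.35) of mir1301-3p, nor among genes with a mean of at least 5 CPM (-1.62). DNTTIP2, a nucleolar protein, had 345 and 155 CPM against 363, 635 and 6405 CPM (-1.86 ± 0.39, adjusted p = 0.011). The mir1180-3p libraries, at 4910 and 6405 CPM, were the highest of its reference, and with mir1180-3p left out the value was -1.20. DNTTIP2 was not called without replicate 2 (-1.40) or against mir550-3p alone (-1.28).

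**Figure D3:**
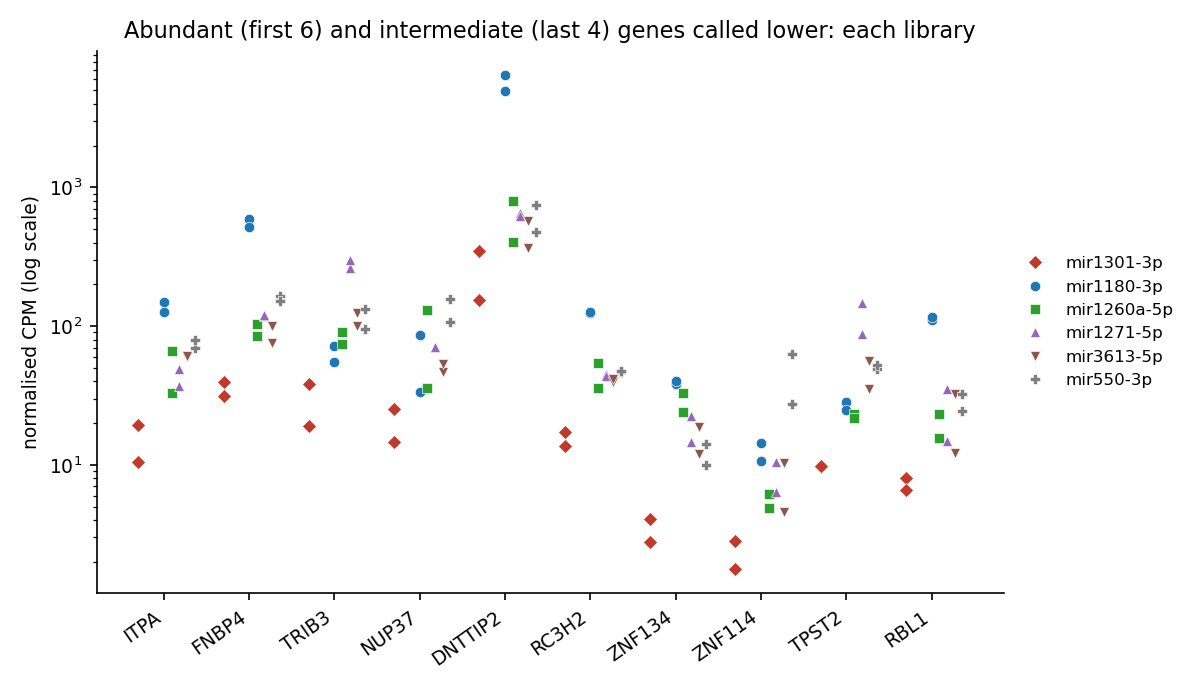
Normalised CPM on a log scale (vertical axis) of the 6 abundant and 4 intermediate genes with the largest decrease among called genes without overlap between mir1301-3p and the rest, 1 symbol per library and 1 colour per miRNA. Both mir1301-3p libraries sit below the other 10 for each gene, and the mir1180-3p libraries are far above the rest for FNBP4, DNTTIP2, RC3H2 and RBL1.

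Cell-cycle genes were abundant or intermediate, classes of which 10.4% and 5.28% were lower, with medians of -0.49 and -0.33. Of 32 G2/M genes 0 were higher by edgeR and 3 lower (1 of 22 abundant and 2 of 10 intermediate), with a median of -0.55 (1 and 13 at an unadjusted p under 0.05, 0 and 7 by DESeq2), and with factors from abundant genes 1 was higher and 0 lower. TOP2A, the topoisomerase of dividing cells, had 173 and 177 CPM against 217 to 611 CPM (-1.10 ± 0.31, adjusted p = 0.029). It was not called without replicate 1 (-1.10) or replicate 2 (-1.12), nor with factors from abundant genes (-0.65) or against mir550-3p alone (-1.13). Of 38 G1/S genes 0 were higher by edgeR and 4 lower (2 of 27 abundant and 2 of 11 intermediate), with a median of -0.42 (0 and 14 at an unadjusted p under 0.05, 0 and 8 by DESeq2); with factors from abundant genes 5 were higher and 3 lower. RRM2, a subunit of ribonucleotide reductase, had 66.5 and 71.5 CPM against 80.1 to 602 CPM (-1.46 ± 0.36, adjusted p = 0.020). RRM2 was not called without replicate 1 (-1.42) or replicate 2 (-1.52), nor among genes with a mean of at least 5 CPM (-1.18).

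The 6 intermediate genes with the largest increase rose by 2.45 to 3.69 on the log2 scale and were called in all 25 alternatives. C20orf26, now named CFAP61 and a part of motile cilia, had 100.1 and 67.5 CPM against a lowest, median and highest value of 0.867, 7.33 and 14.1 CPM (3.69 ± 0.43, adjusted p = 0.00015). OTOP1, a proton channel, had 115 and 67.3 CPM against 1.498, 13.4 and 28.1 CPM (3.15 ± 0.37, adjusted p = 0.00015). For both of these genes mir550-3p had the lowest group mean, and against mir550-3p alone the values were 5.55 and 5.64. IFI30, a lysosomal thiol reductase of antigen processing, had 62.2 and 81.9 CPM against 3.12, 6.42 and 13.02 CPM (3.40 ± 0.28, adjusted p = 7.4e-06). DIO2, which activates thyroid hormone, had 33.3 and 39.5 CPM against 2.52, 5.60 and 10.7 CPM (2.70 ± 0.33, adjusted p = 0.00017).

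NOL4, a nucleolar protein, had 51.7 and 69.3 CPM against 7.22, 11.4 and 16.3 CPM (2.45 ± 0.30, edgeR adjusted p = 0.00017). MUC4, a membrane mucin, had 38.6 and 42.7 CPM against 2.68, 5.70 and 29.0 CPM (2.47 ± 0.32, adjusted p = 0.00031). The libraries of mir1180-3p were the highest of the others for MUC4. The means of these 6 genes in the reference, 6.13 to 13.4 CPM, lay on both sides of the limit of 10 CPM under which a gene was taken as near the background. Genes with a reference mean under it, such as C20orf26 with 7.60 CPM, reached the intermediate class through mir1301-3p. In all 134 intermediate genes were higher, and 145 had both mir1301-3p libraries above the other 10 (2.81%); 20 were called without replicate 1 and 19 without replicate 2 of mir1301-3p, each among the 134.

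The intermediate genes that fell were less stable, and 433 of the class had both mir1301-3p libraries below the other 10 (8.38%). ZNF134, a zinc-finger gene, had 4.05 and 2.78 CPM against 10.015, 20.5 and 40.4 CPM (-2.60 ± 0.41, adjusted p = 0.0021; -2.36 and not called without replicate 2). TPST2, which adds sulfate to tyrosines of secreted proteins, had 9.67 and 9.72 CPM against 21.7, 42.1 and 147 CPM (-2.18 ± 0.36, adjusted p = 0.0026). RBL1, a pocket protein of the retinoblastoma family, had 8.00 and 6.55 CPM against 12.1, 28.4 and 116 CPM (-2.15 ± 0.45, adjusted p = 0.011). ZNF114, another zinc-finger gene, had 2.81 and 1.79 CPM against 4.58, 10.4 and 62.8 CPM (-2.31 ± 0.50, adjusted p = 0.013; -4.29 against mir550-3p alone). Without replicate 1 and without replicate 2 of mir1301-3p the values were -2.18 and -2.19 for TPST2, -2.31 and -2.02 for RBL1 and -2.68 and -2.03 for ZNF114, and none of these 3 was called in either fit. The count of 273 lower genes became 3 without replicate 1 and 17 without replicate 2 of mir1301-3p, 137 without mir1180-3p replicate 1, 434 without mir1271-5p replicate 2, and 141 and 171 without replicate 1 and replicate 2 of mir550-3p.

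The genes near the background were lifted together in both mir1301-3p libraries. The median log2 fold change was 1.32 for genes under 1 CPM, 1.14 between 1 and 2 CPM, 0.82 between 2 and 5 CPM and 0.15 between 5 and 10 CPM. It was -0.23 between 10 and 20 CPM and lay between -0.38 and -0.50 in every higher range. Of the 1721 genes under 1 CPM 766 reached the low-count filter in fewer than 2 of the other libraries and passed it through mir1301-3p, where they are high; the median of the other 955 was 1.10. With factors from abundant genes the same medians were 1.75, 1.56, 1.24 and 0.59 in the 4 ranges under 10 CPM and 0.21 in the next. Both mir1301-3p libraries lay above the other 10 for 2257 of the 7852 genes (28.7%), against 3.1% of abundant genes. Over the 7084 that passed the filter in the other libraries it was 1866 (26.3%), and the median of the class was 0.83 in place of 0.91. The lift was present in each library: genes near the background made up 3.79% and 4.13% of counts, against 1.56% to 2.74% in the other 10.

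**Figure D4:**
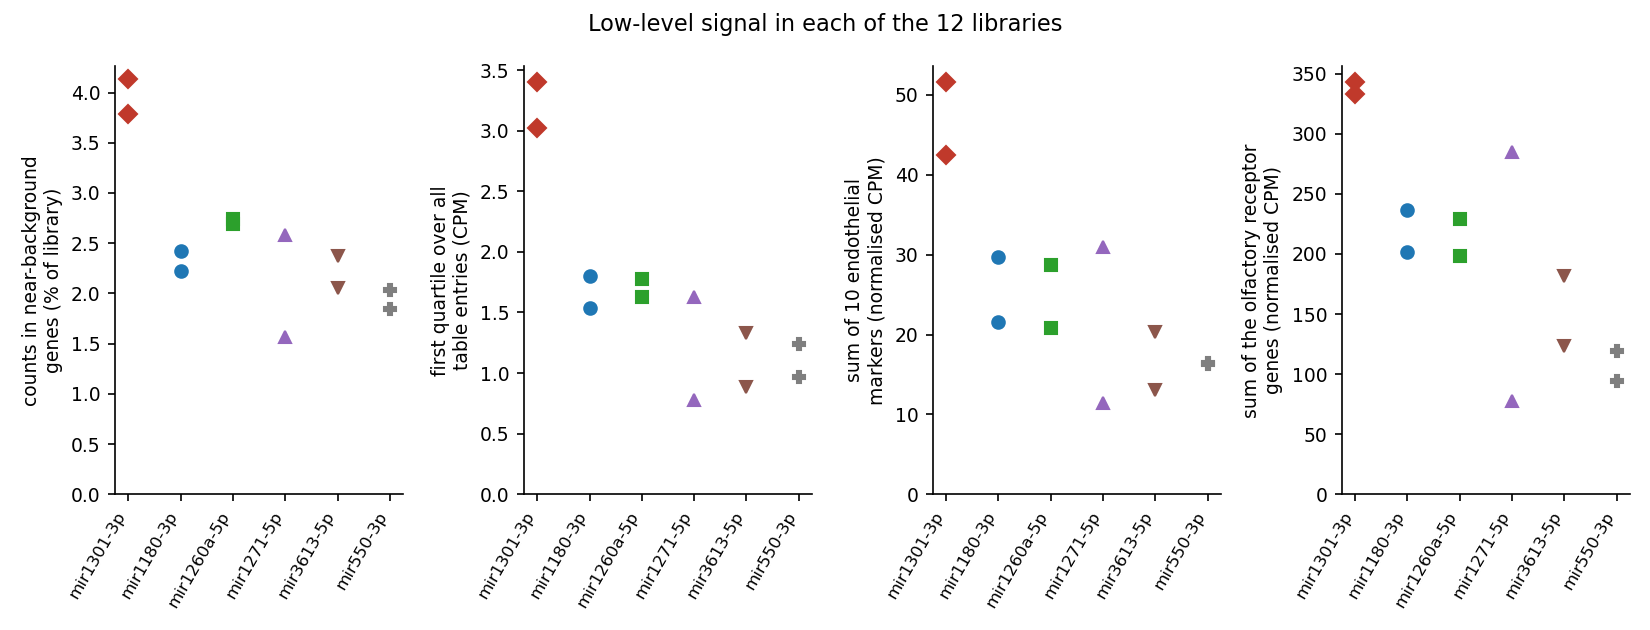
Library-level measures of weak recovery (vertical axes) for the 12 libraries, with mir1301-3p marked apart from the 5 other miRNAs. The mir1301-3p libraries are the highest in the share of counts from genes near the background, 3.79% and 4.13% against 1.56% to 2.74%.

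The count of 1761 higher genes near the background depended on the libraries. It was 54 without replicate 1 and 30 without replicate 2 of mir1301-3p, 908 without mir1180-3p replicate 1, 2853 without mir1271-5p replicate 2 and 940 without mir550-3p replicate 1. The median of the class stayed above 0 in each of these fits, the lowest being 0.77. Against mir550-3p alone it was 1.06, with 643 genes higher. Among the 7084 genes that passed the filter in the other libraries 1430 were higher (20.2%).

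Genes of tissues foreign to a kidney line were part of this lift. They are read against the class near the background, where 22.4% of genes were higher and 28.7% had both mir1301-3p libraries above the other 10. Over the genes of the class that passed the low-count filter in the other libraries these shares were 20.2% and 26.3%. Summed over 10 endothelial markers the mir1301-3p libraries had 42.5 and 51.6 normalised CPM, against 11.4 to 30.9 CPM in the others. Of these markers 5 were called higher, 6 lay above all other libraries and none was at 0. TEK, an angiopoietin receptor, had 6.76 and 7.44 CPM against 1.15 to 4.02 CPM (1.92 ± 0.37, adjusted p = 0.0076), and lost its call without replicate 1 (1.98) or replicate 2 (1.84). Summed over 16 liver markers the libraries had 41.9 and 49.7 CPM against 12.6 to 37.7 CPM, with 6 of 13 tested genes higher, 7 above all other libraries and none at 0. Of these 13 genes 2 passed the low-count filter through mir1301-3p, and 5 of the other 11 were higher. APOB, the apolipoprotein of liver and gut, had 12.7 and 15.6 CPM against 2.84 to 9.13 CPM (1.55 ± 0.34, adjusted p = 0.014), and lost its call without replicate 1 (1.68) or replicate 2 (1.39).

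Of 15 tested blood markers 5 were higher. Of these 15 markers 4 passed the low-count filter through mir1301-3p, and 3 of the other 11 were higher. Of the 20 in the table HBG2, a fetal globin gene, was at 0 in both mir1301-3p libraries, and HBA2 and HBG1, other globin genes, in 1 each. The blood sum, 50.2 and 59.0 CPM, was within the range of the other libraries, 18.2 to 87.7 CPM, while the median marker, 1.40 and 1.54 CPM, was above theirs, 0.471 to 1.25 CPM. Of 11 keratinocyte markers 4 were higher and of 12 muscle markers 1, and the sums of both lists lay within the range of the other libraries. Of the 12 muscle markers 2 passed the filter through mir1301-3p, and 1 of the other 10 was higher. The median keratinocyte marker had 3.12 and 3.42 CPM against 0.670 to 1.82 CPM, above all other libraries, and the median muscle marker 1.56 and 2.78 CPM against 0.507 to 2.02 CPM. Olfactory receptor genes, a list added after the values were seen, had sums of 343 and 333 CPM against 77.9 to 285 CPM over the 374 in the table. Of the 166 tested 103 passed the filter through the mir1301-3p libraries, and 13 of the other 63 were higher. The part of this shared lift in any single gene's result was not tested. In bulk libraries a few cells of another type and a low level in every cell cannot be told apart. The 16 genes typical of HEK 293 summed to 1188 and 1579 CPM against 1378 to 2312 CPM, and PAX8 was the only one of them called (1.46 ± 0.41, adjusted p = 0.029; not called without replicate 1, 1.75, or replicate 2, 1.06).

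Several collagen mRNAs were among the genes near the background that were called higher. Of 41 fibrillar collagen and matrix genes 13 were higher and 0 lower by edgeR (19 and 0 at an unadjusted p under 0.05, 13 and 0 by DESeq2), all 13 of them among the 27 near the background, where 22.4% of genes were higher; the list had been known from an earlier result of these data and is not independent evidence. COL3A1, a chain of fibrillar collagen, had 12.7 and 66.0 CPM against a lowest, median and highest value of 1.16, 3.34 and 4.65 CPM (3.66 ± 0.43, adjusted p = 0.00015). It was not called without replicate 2 (2.02). COL1A2 had 11.6 and 31.4 CPM against 1.08, 2.52 and 4.72 CPM (3.10 ± 0.37, adjusted p = 0.00015), and COL1A1 had 20.8 and 49.8 CPM against 1.93, 4.70 and 7.37 CPM (2.95 ± 0.37, adjusted p = 0.00023). COL1A1 and COL1A2, the chains of type I collagen, were called in all 25 alternatives. Collagen genes near the background that were not called included COL2A1, COL4A1, COL5A2, COL6A2 and COL14A1. In other lists of that class 5 of 10 endothelial markers, 6 of 13 liver markers and 29 of 52 clustered protocadherins, described below, were higher.

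Replicate 2 was the higher of the mir1301-3p libraries for 37 of the 41 matrix genes, and their sum was 425 and 660 normalised CPM against 347 to 442 CPM. Fibroblast and mesenchyme markers summed to 87.1 and 90.2 CPM against 78.4 to 114 CPM, but the median marker had 2.96 and 5.06 CPM against 1.39 to 2.86 CPM, above all other libraries. Of these 14 markers 2 were higher, both among the 11 near the background, 3 lay above all other libraries and none was at 0; the median log2 fold change was 0.78. The part of mesenchymal cells in the collagen values was not tested. Of 26 enzymes and chaperones that modify and fold collagen 4 were higher and 3 lower, against 11.5% and 4.39% of all genes. The higher ones were 4 of 11 near the background, where 22.4% of genes were higher. The lower ones were 2 of 3 abundant and 1 of 12 intermediate genes, classes of which 10.4% and 5.28% were lower. SERPINH1, the collagen chaperone of the endoplasmic reticulum, had 23.9 and 20.2 CPM against 4.40 to 10.2 CPM (1.68 ± 0.35, adjusted p = 0.011; not called without replicate 1, 1.55, or replicate 2, 1.79, or against mir550-3p alone, 1.54). P4HB, the disulfide isomerase that is a subunit of prolyl hydroxylase, had 37.6 and 93.6 CPM against 92.2 to 252 CPM (-1.48 ± 0.36, adjusted p = 0.019). P4HB was not called without replicate 1 (-0.98) or among genes with a mean of at least 5 CPM (-1.21).

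**Figure D5:**
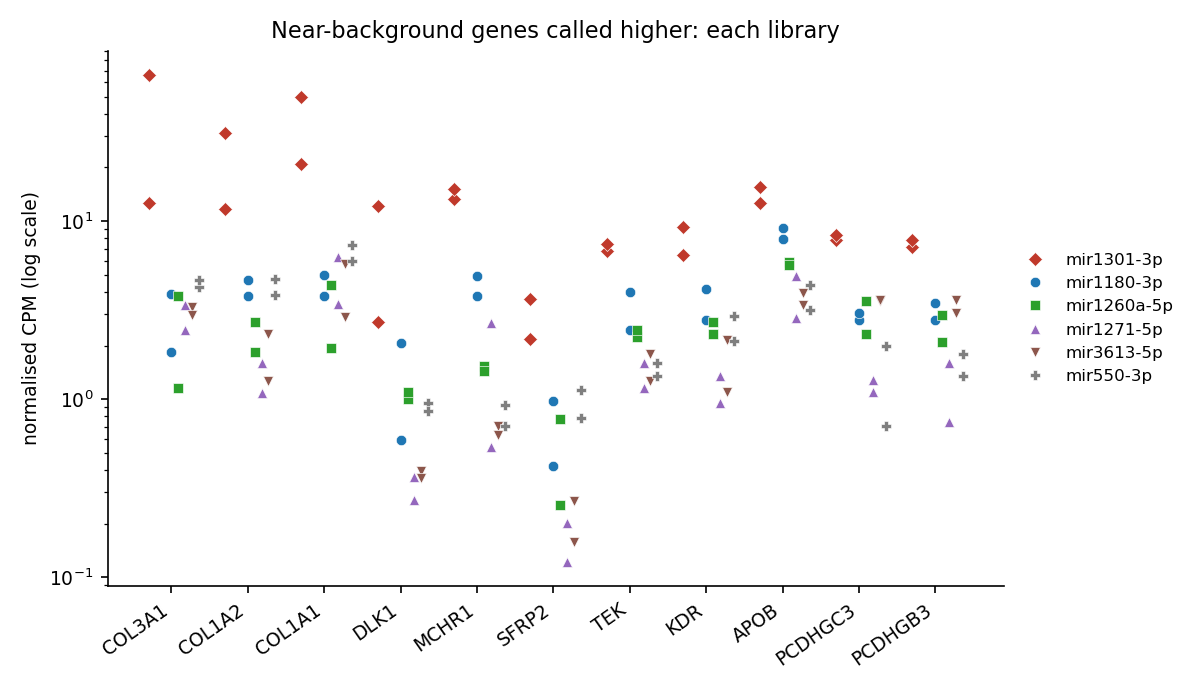
Normalised CPM on a log scale (vertical axis) of 11 genes near the background that were called higher, 1 symbol per library and 1 colour per miRNA. The mir1301-3p libraries are the highest for each gene, and for COL3A1 they are apart from each other, at 12.7 and 66.0 CPM.

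Other genes near the background with the largest increase had low values. MCHR1, a receptor of melanin-concentrating hormone, had 13.3 and 15.2 CPM against 0.541, 1.18 and 4.89 CPM (3.33 ± 0.40, adjusted p = 0.00015). THEG, now named SPMAP2 and a gene of spermatids, had 19.5 and 23.5 CPM against 0.631, 1.52 and 13.8 CPM (3.29 ± 0.53, adjusted p = 0.0024). Replicate 2 of mir1271-5p was the highest of the others for THEG. DLK1, a non-canonical Notch ligand, had 2.70 and 12.1 CPM against 0.270, 0.726 and 2.07 CPM (3.42 ± 0.46, adjusted p = 0.00051; 1.97 and not called without replicate 2). The olfactory receptor genes OR2L2 (3.12 and 2.58 CPM, log2 fold change 3.41) and OR5M3 (5.30 and 2.38 CPM, 3.31) each had a reference library at 0; OR2L2 passed the low-count filter through the mir1301-3p libraries, and OR5M3 was not called without replicate 1 (2.62). Clustered protocadherins are adhesion genes, some of which share exons within a cluster, and reads of shared exons cannot be assigned to 1 gene. Of 52 such genes 29 were higher and 0 lower by edgeR (43 and 0 at an unadjusted p under 0.05, 26 and 0 by DESeq2), with a median of 1.38. All 52 lay in the class near the background, where 22.4% of genes were higher and the median was 0.91.

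Of the 19 genes near the background that were lower, 10 had both libraries below the other 10, an order that 51 genes of the class had (0.65%). The count of 19 was 0 without replicate 1 and 1 without replicate 2 of mir1301-3p, 8 without mir1180-3p replicate 1, 29 without mir1271-5p replicate 2, and 9 and 12 without replicate 1 and replicate 2 of mir550-3p. FAM71E1, now named GARIN5A, had 0.624 and 1.19 CPM against 1.93, 5.11 and 8.36 CPM (-2.48 ± 0.66, edgeR adjusted p = 0.024), and lost its call without replicate 1 (-2.10) or replicate 2 (-3.02). HIST1H2AE, a histone gene whose copies are near-identical, had 0.624 and 0.794 CPM against 0.978, 2.79 and 8.88 CPM (-2.08 ± 0.61, adjusted p = 0.034). It lost the call in 8 alternatives, among them factors from abundant genes (-1.62), each mir1301-3p library left out (-1.93 and -2.27) mir1180-3p replicate 1 left out (-1.996) and mir550-3p alone as the reference (-2.19).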

How the data were processed

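RNA recovered with RISC was measured in 12 libraries, 2 for each of 6 miRNAs. The authors deposited raw counts per gene, and no normalisation was found in the values, which were whole numbers. TopHat2 and the build hg19 are named, per the submitters' processing notes. What counted the reads, with which annotation and strand setting, the version of TopHat2 and the sequencer of these libraries: not given in the sources used here, so reads of overlapping and antisense genes cannot be told apart. Current symbols came from a RefSeq table that matched 18560 of 19077 entries by accession.

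The test used edgeR 4.0.16 under R 4.3.3, with filterByExpr, TMM factors and robust quasi-likelihood F tests, two-sided, on group means, with all 12 libraries sharing 1 estimate of the spread (biological coefficient of variation 0.350). The threshold of a call was 0.05 after Benjamini-Hochberg adjustment over the 17658 genes tested; every adjusted p in the text is from edgeR. Normalised CPM used TMM factors, log2 CPM a prior count of 2, and errors are standard errors of the contrast. Libraries of mir1301-3p differed by more than counting noise.

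Genes were named by rule: called genes whose mir1301-3p libraries both lay above or below the other 10, the 10 and 6 largest changes of the abundant genes, 6 and 4 of the intermediate and 6 and 2 near the background, and up to 3 called genes from each of 29 gene lists. Some genes that were counted are not reported here by name. The members, classes and lists were chosen with earlier results of these data known. Alternatives were DESeq2 1.42.0, other scalings, filters, references and class limits, thinned counts, a replicate block and each library left out. The steps were tested on simulated data.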

Additional observations from a re-analysis of the deposited data

How the results depend on the processing

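The reference holds no library without a miRNA and each miRNA has 2 libraries, so a call near the threshold rarely held with 1 of them. FNBP4, THEG, COL1A1, COL1A2 and the 6 intermediate genes above kept direction and call in each alternative. So did the 20 abundant genes, which had been set apart for this. Counts of calls did not stay the same. With 1 library left out at a time the ranges were 94 to 3193 higher and 6 to 1316 lower for all genes, 34 to 164 and 3 to 853 for abundant, 19 to 176 and 3 to 434 for intermediate, and 30 to 2853 and 0 to 29 for genes near the background. The higher and lower counts of all genes were 1356 and 1674 with DESeq2, 4216 and 222 with upper-quartile scaling, 4355 and 172 with factors from abundant genes, 585 and 109 at a mean of at least 5 CPM, 1353 and 462 against the 4 miRNAs other than mir550-3p, 1345 and 491 with mir1271-5p left out and 1174 and 512 with mir3613-5p left out; against mir550-3p alone 860 were higher. For abundant genes the higher count was 374 with upper-quartile scaling, 404 with factors from abundant genes and 94 against mir550-3p alone. The lower count of abundant genes was 934 with DESeq2, 125 with upper-quartile scaling, 97 with factors from abundant genes, 69 at 5 CPM, 277 without mir550-3p and 294 without mir1271-5p in the reference. For intermediate genes the higher count was 442 with upper-quartile scaling, 476 with factors from abundant genes and 245 with class limits of 30 and 5 CPM. Their lower count was 677, 90, 69 and 38 with DESeq2, upper-quartile scaling, factors from abundant genes and 5 CPM, 175, 457 and 165 with mir550-3p, mir1180-3p or mir3613-5p left out of the reference, and 162 with the other class limits. Near the background the higher count was 1076, 3400, 3475 and 187 in the same 4 settings, 643 against mir550-3p alone, and 1131, 1100 and 953 with mir550-3p, mir1271-5p or mir3613-5p left out. The lower count there was 63, 7, 6 and 2, then 32 against mir550-3p alone, 10, 34, 11 and 12 with mir550-3p, mir1180-3p, mir1271-5p or mir3613-5p left out, and 4 with the other class limits. Other scalings moved the median of all genes, and the 5 CPM filter tested 11622 genes; the cause of the other changes was not tested.

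RPS12, named for its mean CPM in mir1301-3p and not called (-0.01), changed sign to 0.35 with upper-quartile scaling, 0.41 with factors from abundant genes, 0.26 at 5 CPM, 0.015 with thinned counts and 0.12 without mir550-3p, 0.030 without mir1271-5p and 0.056 without mir3613-5p in the reference. Without single libraries it was 0.46 (mir1301-3p replicate 1), -0.74 (mir1301-3p replicate 2, the lowest value), 0.077 (mir1180-3p replicate 1), 0.14 (mir1260a-5p replicate 2) and 0.073 (mir3613-5p replicate 2). With the replicate number as a block 2650 genes were higher and 1088 lower, of them 168 and 706 abundant. The numbers were not taken as a pairing, which would need a correlation over 0.1 in every pair of miRNAs: over 15 pairs the deviations of same-numbered libraries correlated between -0.14 and 0.36, with 6 over 0.1. Leaving miRNAs other than mir550-3p out of the reference was chosen after seeing the data.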

Other observations

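The higher genes among regulators of the developing brain lay mostly near the background. Of 58 tested regulators of cortical progenitors and neurogenesis 8 were higher and 1 lower, against 11.5% and 4.39% of all genes. Of the 8 genes 7 were near the background, where 7 of 25 were higher against 22.4% of that class. Of the 58 genes 2 passed the low-count filter through mir1301-3p, and 7 of the other 56 were higher. SOX2, a transcription factor of neural progenitors and an intermediate gene, had 23.5 and 46.2 CPM against 6.39 to 18.5 CPM in the other libraries (log2 fold change 1.51 ± 0.33, SE, edgeR adjusted p = 0.013; 0.93 and not called without replicate 2). DCX, doublecortin of migrating neurons, had 9.25 and 16.7 CPM against 2.20 to 6.47 CPM (1.73 ± 0.38, adjusted p = 0.013; not called without replicate 1, 2.08, or replicate 2, 1.23). Both libraries lay above the other 10 for each. Of 53 axon guidance genes 6 were higher, 4 of them among the 26 near the background, and of 16 markers of neurons and glia 4 were higher, all among the 14 near the background. SEMA3D, a secreted semaphorin, had 24.0 and 39.8 CPM against 5.63 to 18.7 CPM (1.43 ± 0.36, adjusted p = 0.021; not called without replicate 1, 1.74, or replicate 2, 1.02, or against mir550-3p alone, 1.61).

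Signalling lists are given beside the shares over all genes, 11.5% higher and 4.39% lower. Their counts near the background are given too, a class of which 22.4% was higher and 0.242% lower. Of 41 Wnt pathway genes 2 were higher and of 34 interferon-stimulated genes 2, and of 32 Notch genes 1 was higher and 2 lower. Near the background 1 of 10 Wnt genes, 2 of 26 interferon-stimulated genes and 1 of 11 Notch genes were higher. Of the 34 interferon-stimulated genes 3 passed the low-count filter through mir1301-3p, and 1 of the other 31 was higher. BCL9, a co-activator of beta-catenin, had 40.5 and 51.5 CPM against 9.43 to 19.1 CPM (1.54 ± 0.30, edgeR adjusted p = 0.0086; not called without replicate 1, 1.69, or replicate 2, 1.35). Of 28 motile cilia genes 4 were higher, with C20orf26 among them, and of 42 lysosome and antigen-processing genes 3 were higher and 7 lower, with IFI30 among the higher. Near the background 3 of 22 cilia genes were higher, and 2 of 9 lysosome and antigen-processing genes, with 0 lower in either list. Of the 28 cilia genes 1 passed the low-count filter through mir1301-3p, and 3 of the other 27 were higher. Of 18 genes of the mesenchymal transition 4 were higher, with SNAI2 among them, and of 58 histone genes 1 was higher and 5 lower. Near the background 3 of 8 genes of the mesenchymal transition were higher, and of 40 histone genes 0 were higher and 2 lower.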
